A study of Mus musculus with 6 samples.

Results

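En1, Wnt7a and Lmx1b are the 3 genes through which the dorsal and ventral sides of the mouse limb bud are told apart, and the SP8 peaks around them are described here. EN1 is a homeodomain protein of the ventral ectoderm, the surface layer of the limb bud. There it keeps Wnt7a off. WNT7A is a secreted signal of the dorsal ectoderm, and it switches on Lmx1b in the mesenchyme beneath. LMX1B is a LIM-homeodomain protein that gives the dorsal mesenchyme its identity. SP8, which binds DNA through zinc fingers, works in the limb ectoderm and is known together with SP6 for its part in forming the apical ridge and in dorsoventral patterning. The genes were taken by name, 3 of 21523 protein-coding genes, and each peak with its centre inside a gene or within 500 kb of it was listed. This gave 6 of the 1451 peaks in the list.

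The peaks come from chromatin immunoprecipitation with sequencing (ChIP-seq) on ectoderm of forelimb buds at E10.5. The embryos were homozygous for a knock-in allele, Sp8FL KI, on a C57BL6J background. They make SP8 with a FLAG tag, and the tag was pulled down with the FLAG M2 antibody. The ectoderm of 50 forelimb buds was pooled per replicate. Trypsin at 0.25% for 20 min and 18 PCR cycles were recorded for every library. The labels name no separation of dorsal from ventral ectoderm, so a peak cannot be placed on a side. The design holds 6 libraries (2 SP8-FLAG immunoprecipitations, 2 inputs, and an immunoprecipitation of the histone mark H3K4me2 with its input from WT embryos), and 1 peak list, named for SP8 replicate 1, was analysed. It gives a position and a running number for each peak, without height, fold, read count or depth. The values below therefore have no replicate check and no test. An expression value to check the labelled tissue against marker genes was not analysed here.

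Sequences of the peaks were not used here. Bases before each gene's start site are shown because they are the nearest reference sequence to which the peak positions can be related. Another reason is that the genes differ in the boxes that SP and KLF proteins are known to bind. For Lmx1b, the bases nearest the start site lie inside the gene record and are not shown. The bases shown are from RefSeq, build GRCm38.p6, written 5′ to 3′ along the gene. Capitals mark the GC box (GGGCGG) and the CACCC box (CACCC), each on either strand. No copy of one overlapped a copy of the other.

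En1, + strand, chr1:120602237-120602486: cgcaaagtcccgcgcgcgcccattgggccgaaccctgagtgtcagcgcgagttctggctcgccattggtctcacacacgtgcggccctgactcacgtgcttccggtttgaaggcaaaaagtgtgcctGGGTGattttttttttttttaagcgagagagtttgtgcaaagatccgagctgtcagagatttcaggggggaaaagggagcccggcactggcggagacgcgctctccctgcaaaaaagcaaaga
Wnt7a, - strand, chr6:91411354-91411603: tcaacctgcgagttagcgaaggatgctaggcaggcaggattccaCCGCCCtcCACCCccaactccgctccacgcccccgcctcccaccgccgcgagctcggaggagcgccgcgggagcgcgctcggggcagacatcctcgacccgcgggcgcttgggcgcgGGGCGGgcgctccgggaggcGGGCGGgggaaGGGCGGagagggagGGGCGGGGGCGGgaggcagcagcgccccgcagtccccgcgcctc
Lmx1b, - strand, chr2:33641209-33641348, shown only as far as it lies outside the gene record: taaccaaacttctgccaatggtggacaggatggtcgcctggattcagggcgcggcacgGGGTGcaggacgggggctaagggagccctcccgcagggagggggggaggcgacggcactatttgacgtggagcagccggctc

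Over the whole RefSeq window of 300 bases, 250 before the start site and 50 from it on, the genes held unequal numbers of these boxes. The Wnt7a window held 6 GC boxes, 5 on the strand of the gene, starting between 206 and 38 bases before the start site. The En1 and Lmx1b windows held 0. A GC box on either strand was present in 35.7% of the 32851 windows in the table. The CACCC box was present 1 time upstream of Wnt7a, 1 time upstream of En1 and 2 times upstream of Lmx1b, and 57.5% of all windows held at least 1. TAATTA, a core that many homeodomain proteins recognise, was in 0 of the 3 windows and in 5.29% of all. In base composition Wnt7a was again apart, with 76.0% G and C, a level reached by 3.10% of windows. Lmx1b had 65.7% and En1 57.0%, beside a median of 52.7%.

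None of these windows was touched by a peak. A peak touched 1.49% of all windows in the table, so 0 of 3 is a usual count. The windows lay at very different distances from the nearest peak edge: 158 bp for Lmx1b, 19281 bp for En1 and 85699 bp for Wnt7a. Wnt7a, with the most GC boxes before its start site, had the window farthest from a peak. En1 and Lmx1b, with 0 GC boxes each, also differed from each other in distance. A relation between boxes and peaks was not tested on these 3 genes.

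**Figure D1:**
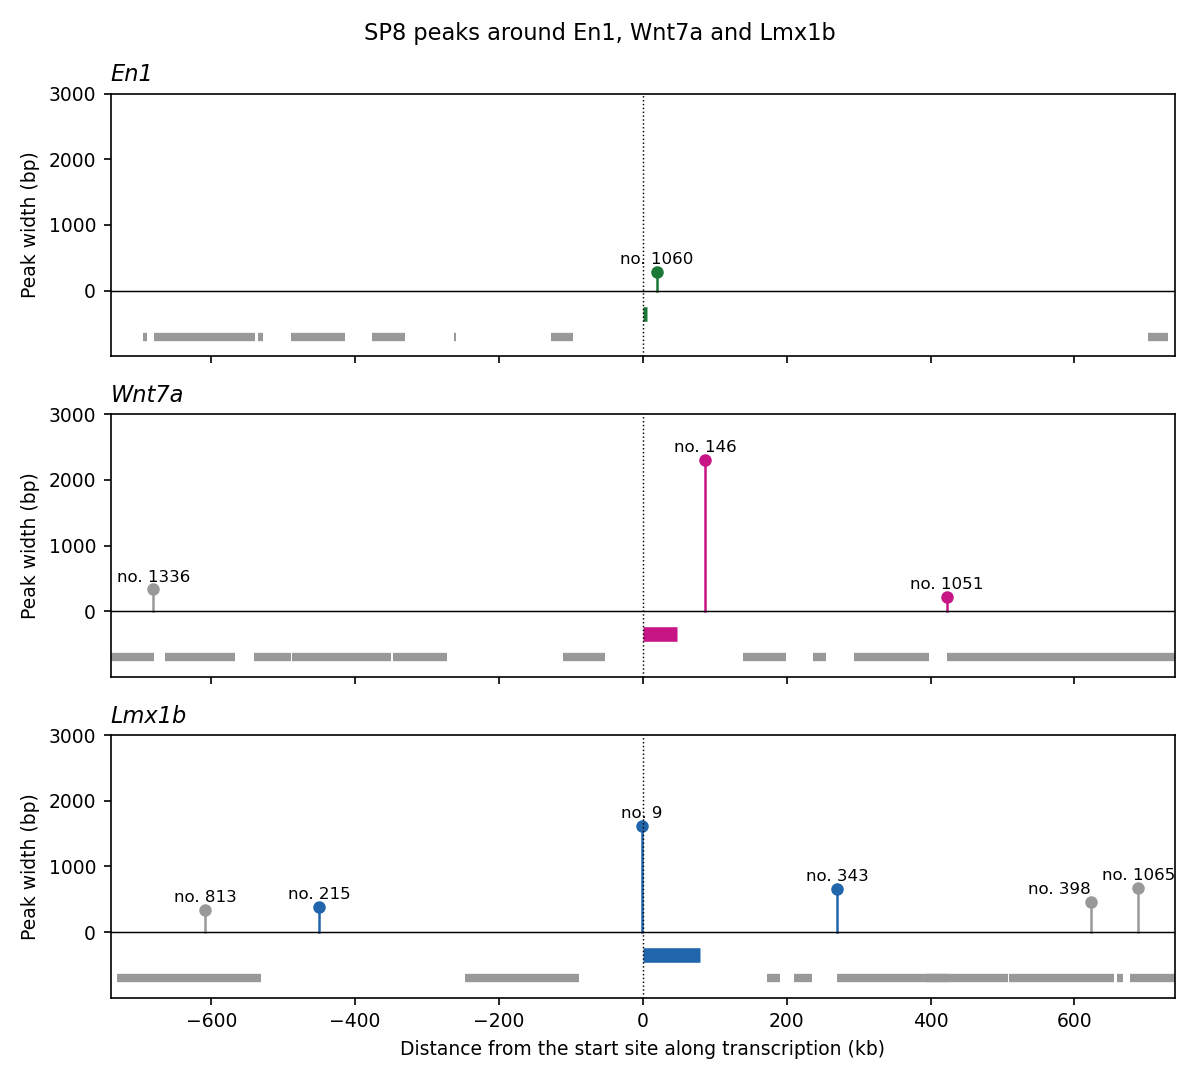
Position of SP8 peaks along En1, Wnt7a and Lmx1b. The horizontal axis is the distance from the gene's start site in kb, drawn along the direction of transcription, and the height of each pin is the width of a peak in bp with its number in the list beside it. Coloured pins lie within 500 kb of the gene and grey pins farther away; the coloured bar is the gene and grey bars are other protein-coding genes. En1 has 1 coloured pin, Wnt7a has 2 and Lmx1b has 3.

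En1 had 1 peak. The gene occupies chromosome 1, 120602487 to 120607991 (5505 bp), and peak 1060, at 120621817 to 120622105, was 288 bp wide. Its centre lay 14.0 kb beyond the 3′ end of En1 and 19.5 kb from the start site. No protein-coding gene lay closer. The next one, Marco, which encodes a scavenger receptor, was 116.9 kb from the peak on the other side of En1. Of the noncoding records, 2 lay closer: the peak was inside 2610027F03Rik, a long noncoding RNA record of 148914 bp that begins 6663 bp beyond En1, and Gm34352 was 5.20 kb away.

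This peak was the only one of the list for a long way around En1. The second nearest was peak 468, 1554.1 kb away and nearest to Gli2, a transcription factor gene of the Hedgehog pathway. The peaks on either side of En1 were 1573.6 kb apart, compared with a median of 2808.7 kb for the interval around a protein-coding gene (quartiles 1196.8 and 6051.9, over the 20918 genes with a peak on both sides). Within 500 kb of En1 there were 5 other protein-coding genes. Their own nearest peak was the En1 peak in each case, at 116.9 to 500.9 kb, and En1 was the nearest of them to it.

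Wnt7a had 2 peaks, both beyond its 3′ end. The gene occupies chromosome 6, 91363981 to 91411353 (47373 bp), on the - strand. Peak 146, at 91323302 to 91325605, was 2303 bp wide. Its centre lay 39.5 kb past the 3′ end and 86.9 kb from the start site. It was inside no gene record of any kind, and no gene lay closer to it than Wnt7a. The runner-up was Fbln2, the gene of the matrix protein fibulin-2, at 51.9 kb. The peak thus sat within the 91.4 kb between the 3′ ends of Fbln2 (+ strand) and Wnt7a, somewhat closer to Wnt7a. Of the 1447 peaks on chromosomes 1 to 19 and X, 16.0% were as far or farther from every protein-coding gene.

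The other peak, 1051, was 219 bp wide (90988721 to 90988940). It lay 375.2 kb from Wnt7a and 0.35 kb from Iqsec1, a gene for an ARF exchange factor. Closer to it than Wnt7a were 5 protein-coding genes (Iqsec1, Nup210, Hdac11, Fbln2 and Slc41a3), 2 long noncoding RNAs and 3 pseudogenes. No peak was found between Wnt7a and peak 1336, 680.8 kb away on its start-site side. Of 12 protein-coding neighbours within 500 kb, 2 had a nearer peak than Wnt7a, and both of these, Iqsec1 (0.35 kb) and Nup210 (24.2 kb), had it from peak 1051.

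Lmx1b had 3 peaks, and the nearest was the only one of the 6 within 10 kb of the gene it was listed for. The gene occupies chromosome 2, 33560965 to 33641208 (80244 bp), on the - strand. Peak 9, at 33641506 to 33643118, was 1612 bp wide. Its centre lay 1.10 kb outside the gene and 1.21 kb upstream of the start site at 33641098, and its near edge was 298 bp outside the gene. No other protein-coding gene was nearer than Mvb12b at 87.6 kb. The peak lay inside C130021I20Rik, a long noncoding RNA of 4471 bp on the opposite strand, whose record overlaps that of Lmx1b by 16 bp. Lmx1b is known as a gene of the mesenchyme, while the labelled tissue is the ectoderm. How much mesenchyme remained on the peeled ectoderm cannot be read from a peak list and was not tested.

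The other peaks around Lmx1b lay nearer to other genes. Peak 343 (33370573 to 33371226, 653 bp wide) was 190.1 kb beyond the 3′ end of Lmx1b. It lay inside Ralgps1, a gene for a Ral exchange factor, with its near edge 219 bp from that gene's promoter window. Zbtb34, Zbtb43 and Angptl2 were also closer to it than Lmx1b. Peak 215 (34090613 to 34090999, 386 bp wide) was 449.6 kb upstream of Lmx1b, inside the long noncoding RNA record C230014O12Rik. Closer to it were Pbx3, a homeobox gene, at 80.7 kb, then Mvb12b and Mapkap1. It was the farthest peak inside the limit of 500 kb, and the first one outside was peak 398, 542.8 kb from Lmx1b and nearest to Garnl3. The peaks on either side of the middle of Lmx1b were 271.4 kb apart, the shortest such interval of the 3 genes. Of its 6 protein-coding neighbours, 5 had a peak within 100 kb, compared with 3 of 12 around Wnt7a and 0 of 5 around En1. Over all protein-coding genes the share was 20.1%. This counts genes and not separate peaks, because neighbours can share a peak. Ralgps1, Zbtb34 and Zbtb43 all had theirs from peak 343, and Mvb12b had its own from peak 9, the nearest peak of Lmx1b.

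Set side by side, the 3 genes each had 1 peak to which they were the nearest protein-coding gene, and these were at 1.10 kb (Lmx1b), 14.0 kb (En1) and 39.5 kb (Wnt7a). Being nearest to at least 1 peak was found for 6.00% of protein-coding genes. The other 3 of the 6 peaks had 3 to 5 protein-coding genes closer. In position the 3 nearest peaks differed: upstream of the start site at Lmx1b, past the 3′ end at En1 and at Wnt7a. None was inside a protein-coding gene, whereas 53.0% of all placed peaks were. In all, 4 of the 6 peaks were inside a gene record, coding or not, against 62.7% of placed peaks.

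The counts depended on the distance allowed. A peak centre inside the gene or within 500 kb was found for 3 of 3 genes and for 51.0% of protein-coding genes, so at that distance a peak is common. Within 100 kb it was again 3 of 3, against 20.1%, and within 10 kb it was 1 of 3 (Lmx1b), against 6.48%. A second peak within 500 kb, seen for Wnt7a and Lmx1b, was found for 26.0% of genes, and 3 or more, seen for Lmx1b, for 12.4%. A peak as near as that of Lmx1b was found for 4.80% of genes, as near as that of En1 for 7.34%, and as near as that of Wnt7a for 11.7%. These shares are a background and not a test. Longer genes also reach more peaks by their length alone, and Lmx1b was the longest of the 3.

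**Figure D2:**
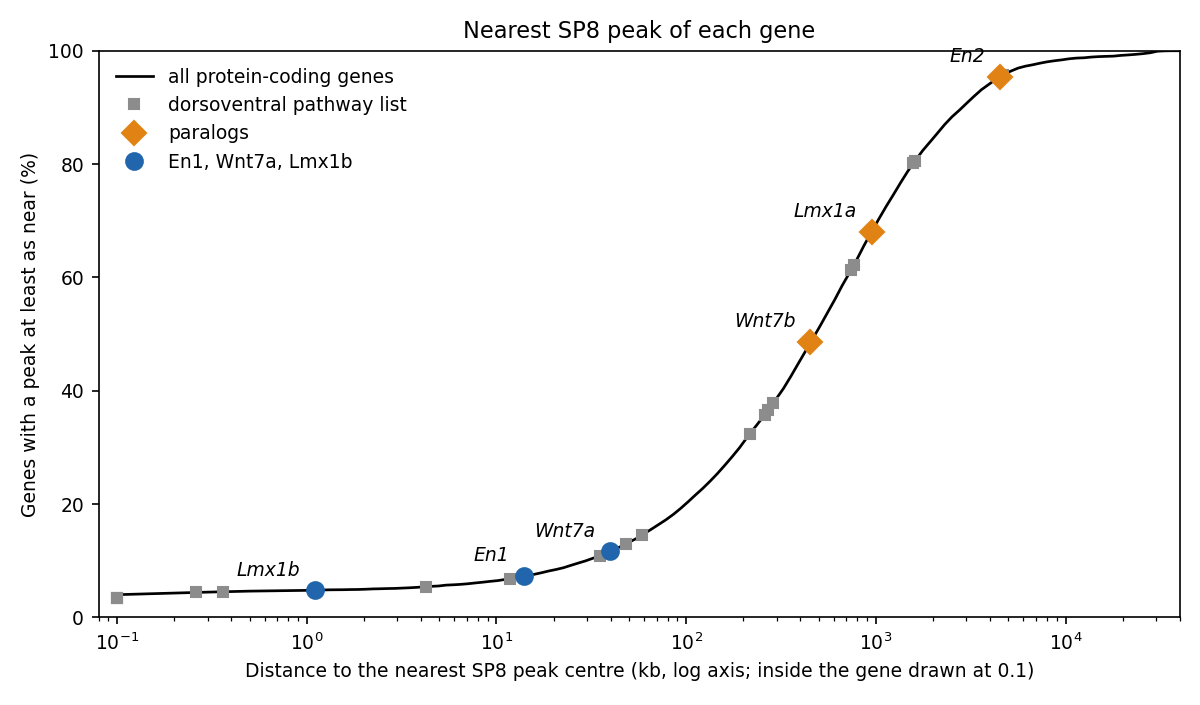
Distance to the nearest SP8 peak for En1, Wnt7a, Lmx1b and related genes. The horizontal axis is the distance in kb on a log scale, with genes that hold a peak centre drawn at 0.1, and the vertical axis is the percentage of the 21523 protein-coding genes with a peak at least as near; the black line is all of those genes. En1, Wnt7a and Lmx1b lie at 1.10 to 39.5 kb, and their paralogs at 452.4 to 4489.7 kb.

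Each gene has a close relative that is not known for this role in the limb, and none of these had a peak within 100 kb. The nearest peak was 4489.7 kb from En2, 951.5 kb from Lmx1a and 452.4 kb from Wnt7b. Each of these peaks lay nearer to another gene (Srpk2, Fmo9 and Celsr1). Within 100 kb the counts were 0 of 3 paralogs and 3 of 3 genes of the dorsoventral set, beside 20.1% of all protein-coding genes, so 0 of 3 is a usual count. Wnt7b lay slightly nearer to a peak than the median protein-coding gene (480.8 kb), and Lmx1a and En2 lay farther. With 3 genes on each side and the set chosen with earlier results known, this is a description only.

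A wider list of 19 genes of the dorsoventral pathway, 10 of which had a peak within 100 kb (background 20.1%), was then laid beside the 3 genes. It held 9 genes of BMP signalling, 6 of Wnt signalling, Sp6, Sp8, the ridge gene Fgf8 and Ldb1. Among the 10 were Fgf8, Sp6 and Sp8, the gene of the factor pulled down. The median distance to a peak over the list was 58.5 kb, compared with 480.8 kb over all protein-coding genes. This list too was chosen with earlier results of these data known, so its counts and distances are a description only. BMP signals switch on En1 in the ventral ectoderm. Of the 9 genes on that side, 4 had a peak within 100 kb: the homeobox target Msx2 at 0.36 kb, its relative Msx1 at 4.25 kb, the ligand Bmp7 at 11.8 kb, and the signal transducer Smad4 at 58.5 kb, on a peak nearer to Me2. The ligands Bmp4 (271.4 kb) and Bmp2 (1578.0 kb), the receptor Bmpr1a (767.0 kb), and the transducers Smad1 (4705.2 kb) and Smad5 (1602.6 kb) did not.

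On the Wnt side 3 of 6 genes had a peak within 100 kb, beside 20.1% of all protein-coding genes. The ligand gene Wnt3, expressed in limb ectoderm, held a peak centre, as did 3.47% of all protein-coding genes. The receptor gene Fzd10 had a peak at 35.3 kb and Ctnnb1, the gene of beta-catenin, at 48.4 kb. Both were the nearest protein-coding gene to their peak. The others were Rspo2, which encodes a Wnt potentiator (217.1 kb), the co-receptor Lrp6 (259.2 kb) and the inhibitor Dkk1 (739.8 kb), and each of their nearest peaks lay nearer to another gene. The nearest peak of Ldb1, whose protein binds LMX1B as a cofactor, was 288.3 kb away. It was the peak centred 0.26 kb from the ridge gene Fgf8. Sp6 and Sp8 each held a peak centre, against the same 3.47%.

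**Figure D3:**
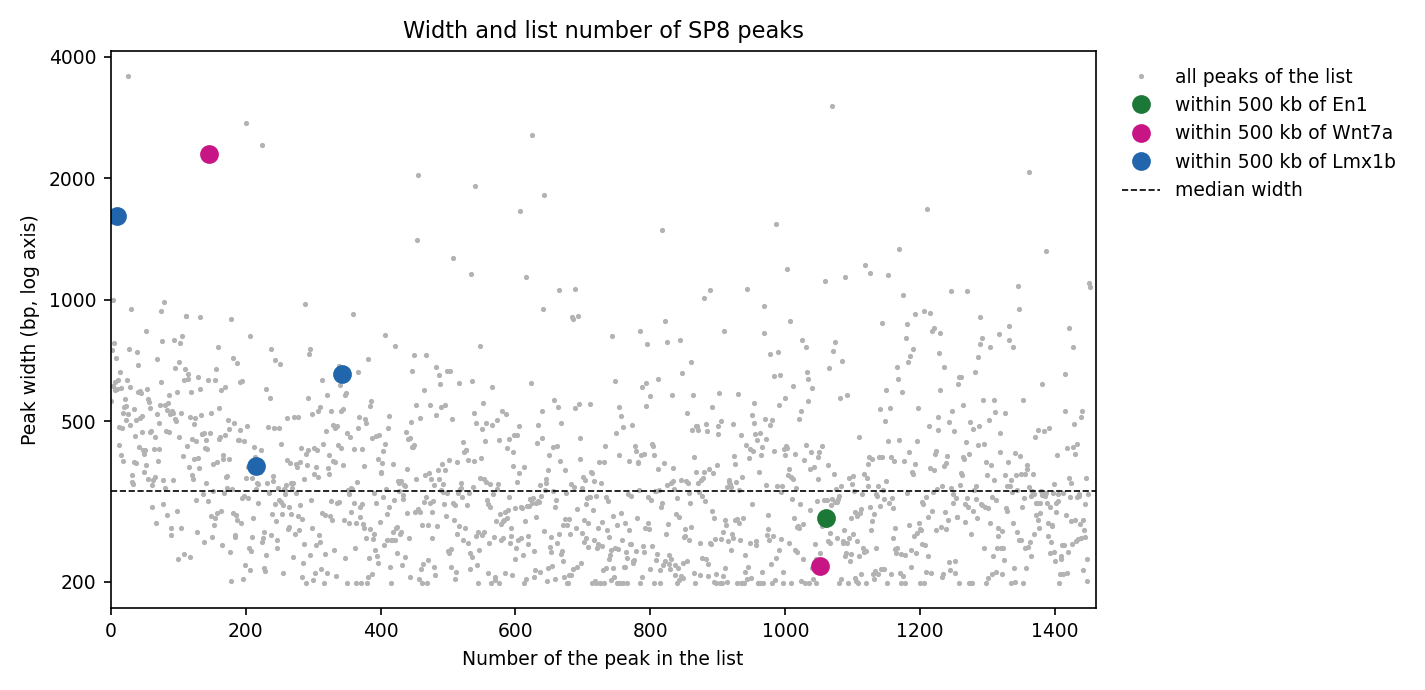
Width of each SP8 peak against its number in the list. The horizontal axis is the number from 1 to 1451, the vertical axis is the width in bp on a log scale, grey points are all peaks, coloured points are the 6 peaks within 500 kb of En1, Wnt7a or Lmx1b, and the dashed line is the median width of 336 bp. The points of 2303 bp (Wnt7a) and 1612 bp (Lmx1b) stand high above that line, and the En1 point of 288 bp lies under it.

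Width and number are the only values the list gives apart from position. What the number stands for is not stated. The 6 peaks were 2303, 1612, 653, 386, 288 and 219 bp wide, and 4 of them were wider than the median of 336 bp (quartiles 257.5 and 465.5). The widest pair were the nearest peaks of Wnt7a and Lmx1b. Only 5 peaks of the list were wider than that of Wnt7a. In order of width, and named after their values were seen, their nearest protein-coding genes were Sp8, Midn, Bahcc1, Slc38a10 and Zfp503. The centre lay inside 4 of these genes, all but Slc38a10, which was 35.7 kb from its peak. The peak of Lmx1b was exceeded by 12. The En1 peak was narrower than most, since 65.2% of peaks were at least as wide.

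The numbers of the nearest peaks were also far apart. They were 9 for Lmx1b, 146 for Wnt7a and 1060 for En1, so the En1 peak stood 73.1% of the way down the list. The peak of Lmx1b was wider than the other 9 among the first 10. The 13 peaks at least as wide as that of Lmx1b had numbers from 9 to 1362, with a median of 540, and 10 of them were among the first 725. Of the 3 genes, En1 thus rested on a single peak that was late in the list and somewhat under the median width. Wnt7a and Lmx1b each had a wide peak early in the list. Whether replicate 2 holds these peaks was not analysed here.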

How the data were processed

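One deposited file was used, the authors' list of SP8 peaks, whose name gives replicate 1, a q of 0.1 and a fold change of 3. The list has 4 columns. The deposited score in column 4 is a running number of unstated meaning, and columns 2 and 3 are the start and end. Whether starts count from 0 or 1 is not stated, so distances may be off by 1 bp. Per the submitters' processing notes the tools were FastQC, SAMtools, TopHat2, deepTools and MACS2 and the builds GRCm38 and mm10, with no roles or versions. The control library and any pooling are not given in the sources used here. No depth is known.

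Genes came from the RefSeq table of GRCm38.p6 (49214 used, 21523 protein-coding, on chromosomes 1 to 19 and X), and strand and start sites from the RefSeq promoter table (32851 windows, 27025 genes). All 3 genes matched both. Start sites can lie inside the gene record. Exons were not used. Distance runs from the peak centre to the nearer end of the gene, and is 0 inside it. Promoter windows were searched for exact motifs on both strands.

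Because 1 list has no groups, no test was run. Named were the 3 genes with their peaks, the nearest protein-coding genes, 3 paralogs and the pathway list. The members and lists were chosen with earlier results of these data known. Distances were tested on simulated peaks for the nearest-peak comparison, where 200 of 200 planted distances among 2000 genes were recovered. Python 3.11.15, numpy 2.4.6, pandas 2.3.3, scipy 1.17.1 and matplotlib 3.10.9 were used.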

Additional observations from a re-analysis of the deposited data

How the results depend on the processing

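Of 47 alternatives over 21 results, 30 left the value close to the reported one and 17 moved it. A count, a median width or a median number was taken as moved when it changed by more than 1.5 times, a distance when it changed by more than the width of the nearest peak, and a share when it left its 95% Wilson interval. Some of the 30 could not have moved under these rules. The edge of a peak lies less than its width from its centre. TAATTA reads the same on both strands, and a GC box count of 0 on either strand stays 0 on the gene strand. The list was also reduced to its first 725 numbers. Since the meaning of the number is not stated, this shows how the results change with a shorter list and not under a stricter threshold. En1 then had 0 peaks within 500 kb, 0 peaks to which it was nearest, and its nearest peak was 1554.1 kb away. Wnt7a had 1 peak, the median width over the remaining 4 peaks was 1132.5 bp (519.5 over all 6), their median number 180.5 (279 over all), and the share of protein-coding genes with a peak within 100 kb was 10.7%. That list is shorter by construction. A window of 100 kb gave 1 peak each for Wnt7a and Lmx1b, and 1000 kb gave 8 for Lmx1b. Measured from the start site, the nearest peak was 19.5 kb from En1 and 86.9 kb from Wnt7a. When noncoding genes competed, En1 and Lmx1b were nearest to 0 peaks, and the share within 100 kb over all genes was 16.4%. On the gene strand alone, the CACCC box was found 0 times for En1 and 0 times for Lmx1b, and 33.5% of all windows held at least 1.

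No paired analysis was possible because the peaks of just 1 library were used. For the same reason leaving out a replicate was not run. The depth is unknown, so binding below the authors' threshold could not be told apart from no binding.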
